A study of Rattus norvegicus with 8 samples.

Results

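Glucose uptake, glycolysis and the hypoxia response were followed through 10 genes: the glucose transporter Slc2a1, the hexokinases Hk1 and Hk2, the regulator Pfkfb3, the glycolytic enzymes Aldoa, Pgk1, Eno1 and Ldha, the hypoxia-inducible factor subunit Hif1a and the mitophagy receptor Bnip3. Members were the probe sets whose platform gene symbol was exactly 1 of these names. The rule found 12 of the 20242 probe sets, for 9 of the 10 genes, and Hk2 was not analysed here. Of these, 10 probe sets entered the tests, at least 1 for each of the 9 genes. The others were an Affymetrix control probe set for Hk1, between 2.75 and 4.80 on the log2 scale, and a Pgk1 probe set between 3.01 and 3.99. Both lay under the log2 level of 5 that 2 of the 8 arrays had to reach for a test.

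RNA came from the dorsal-caudal lung quadrant of male Sprague-Dawley rats weighing 340 to 400 g, whose age was not given. Prone ventilation gave 3 samples and supine ventilation 3. Both groups received a high tidal volume (18 mL per kg) at 40 breaths per minute and an end-expiratory pressure of 0 cmH2O for up to 3 hours, by the condition label. The titles of the supine samples carry SVt where those of the prone samples carry HVt. The condition label was followed, so the supine against prone comparison rests on it. The 2 controls were not ventilated. The labels describe anaesthesia, tracheotomy and a jugular cannula before ventilation and do not say whether controls had them, so that ventilation and this preparation cannot be told apart. Each sample was 1 array and is called a biological replicate in its title. The number of arrays, 2, 3 and 3, limits the precision of every value.

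Glycolysis splits glucose to pyruvate in the cytosol and yields ATP without oxygen, and lactate dehydrogenase turns that pyruvate into lactate. When oxygen is short, the HIF-1alpha protein escapes degradation, enters the nucleus and raises transcription of the glucose transporter and of most enzymes of the pathway. HIF-1alpha is controlled mainly through the stability of the protein, so its mRNA need not follow its activity. In the lung, activated neutrophils rely heavily on glycolysis, and the ventilated tissue is a mixture in which fewer cells of a type and less RNA per cell cannot be told apart.

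The HIF-1 dimer binds a short core, ACGTG or GCGTG, known as the hypoxia response element. The 300 bases around the start of a gene (250 before, 50 after) were searched for both on either strand, in RefSeq sequence of build GRCr8. A palindromic CACGTG, which is also the E-box of other factors, counts on both strands. The windows of Ldha, Slc2a1, Pfkfb3 and Bnip3 are shown because these genes stand for the different array patterns described below. Capitals mark each match:
Ldha promoter, chr1:106507842-106508141, + strand: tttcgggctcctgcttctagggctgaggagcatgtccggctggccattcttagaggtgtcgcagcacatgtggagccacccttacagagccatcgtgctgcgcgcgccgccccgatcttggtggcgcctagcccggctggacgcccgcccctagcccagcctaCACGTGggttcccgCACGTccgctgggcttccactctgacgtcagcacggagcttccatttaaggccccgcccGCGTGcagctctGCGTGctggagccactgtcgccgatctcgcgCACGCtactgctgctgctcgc
Slc2a1 promoter, chr5:138002272-138002571, + strand: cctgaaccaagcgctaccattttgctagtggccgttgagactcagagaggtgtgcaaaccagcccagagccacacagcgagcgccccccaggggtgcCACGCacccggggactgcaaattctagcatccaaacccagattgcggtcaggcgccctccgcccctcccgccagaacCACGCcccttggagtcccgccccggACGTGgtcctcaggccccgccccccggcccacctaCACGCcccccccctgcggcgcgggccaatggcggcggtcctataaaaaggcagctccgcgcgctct
Pfkfb3 promoter, chr17:71944683-71944982, + strand: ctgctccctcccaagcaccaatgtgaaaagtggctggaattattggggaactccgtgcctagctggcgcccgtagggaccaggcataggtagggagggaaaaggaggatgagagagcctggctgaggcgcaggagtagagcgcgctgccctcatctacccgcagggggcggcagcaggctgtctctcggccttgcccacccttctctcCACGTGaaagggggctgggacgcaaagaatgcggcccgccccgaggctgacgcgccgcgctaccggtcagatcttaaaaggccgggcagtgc
Bnip3 promoter, chr1:203154913-203155212, - strand: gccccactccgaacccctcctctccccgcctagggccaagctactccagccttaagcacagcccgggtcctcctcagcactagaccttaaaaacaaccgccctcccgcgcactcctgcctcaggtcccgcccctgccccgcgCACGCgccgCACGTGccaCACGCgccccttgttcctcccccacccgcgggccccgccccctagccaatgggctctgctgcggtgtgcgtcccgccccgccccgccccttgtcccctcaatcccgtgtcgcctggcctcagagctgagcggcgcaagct

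Of the 10 genes 9 were matched to RefSeq windows by symbol, all but Pgk1, with 13 windows in all, since Eno1, Hk1 and Aldoa have more than 1 start. An ACGTG or its reverse complement stood in 8 of the 13 windows, against 19.3% of all 33469 windows of this length. Either core stood in 9 of the 13, against 41.6% of all. The Ldha window held 3 matches to each core, and the nearest ACGTG began 73 bases before the start. Of its 3 ACGTG matches, 2 were 1 palindrome read on both strands. Slc2a1 held 1 ACGTG and 3 GCGTG. In Pfkfb3 and in Bnip3 the 2 ACGTG matches were 1 palindrome read on both strands. The window of Hk2 held 0 of either core. A match is a stretch of letters and says nothing of binding in these lungs.

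No gene of the group passed the adjusted threshold in a comparison of ventilated with non-ventilated lungs, each made with only 2 control arrays. In limma's test over 16896 probe sets with Benjamini-Hochberg adjustment, 0 of the 10 member probe sets passed an adjusted p of 0.05 in prone against control lungs, where 0.0533% of all probe sets did (9 probe sets, or 0 with the replicate number as a block). The same count was 0 of 10 in supine against control lungs, where 0.0533% passed (9, or 0 with the block), and 0 of 10 in supine against prone lungs, where 0% passed. For all ventilated against control lungs it was 0 of 10, where 0.142% passed (24, or 0 with the block). The comparisons with controls share the same 2 control arrays. At an unadjusted p under 0.05 the member count was again 0 in each comparison, against 17.7% of all probe sets for prone, 15.2% for supine, 4.09% for supine against prone and 19.2% for all ventilated lungs.

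The direction of the differences was mixed as well. The median over the 9 genes was -0.067 log2 units in prone against control lungs, beside -0.15 over all 10240 named genes, with 3 genes higher and 6 lower. In supine against control lungs it was -0.00195, beside -0.07, with 4 higher and 5 lower. Both medians turned with the replicate block, to 0.058 with 5 higher and 4 lower in prone and to 0.20 with 7 higher and 2 lower in supine lungs. They also turned with centred arrays, to 0.078 and 0.072. In supine against prone lungs 7 genes were higher and 2 lower, with a median of 0.18 beside 0.07. The plot of expression by array shows spread within the ventilated groups for most genes. The share of variation within groups was not computed, and Bnip3 was lower on every ventilated array than on both controls.

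**Figure D1:**
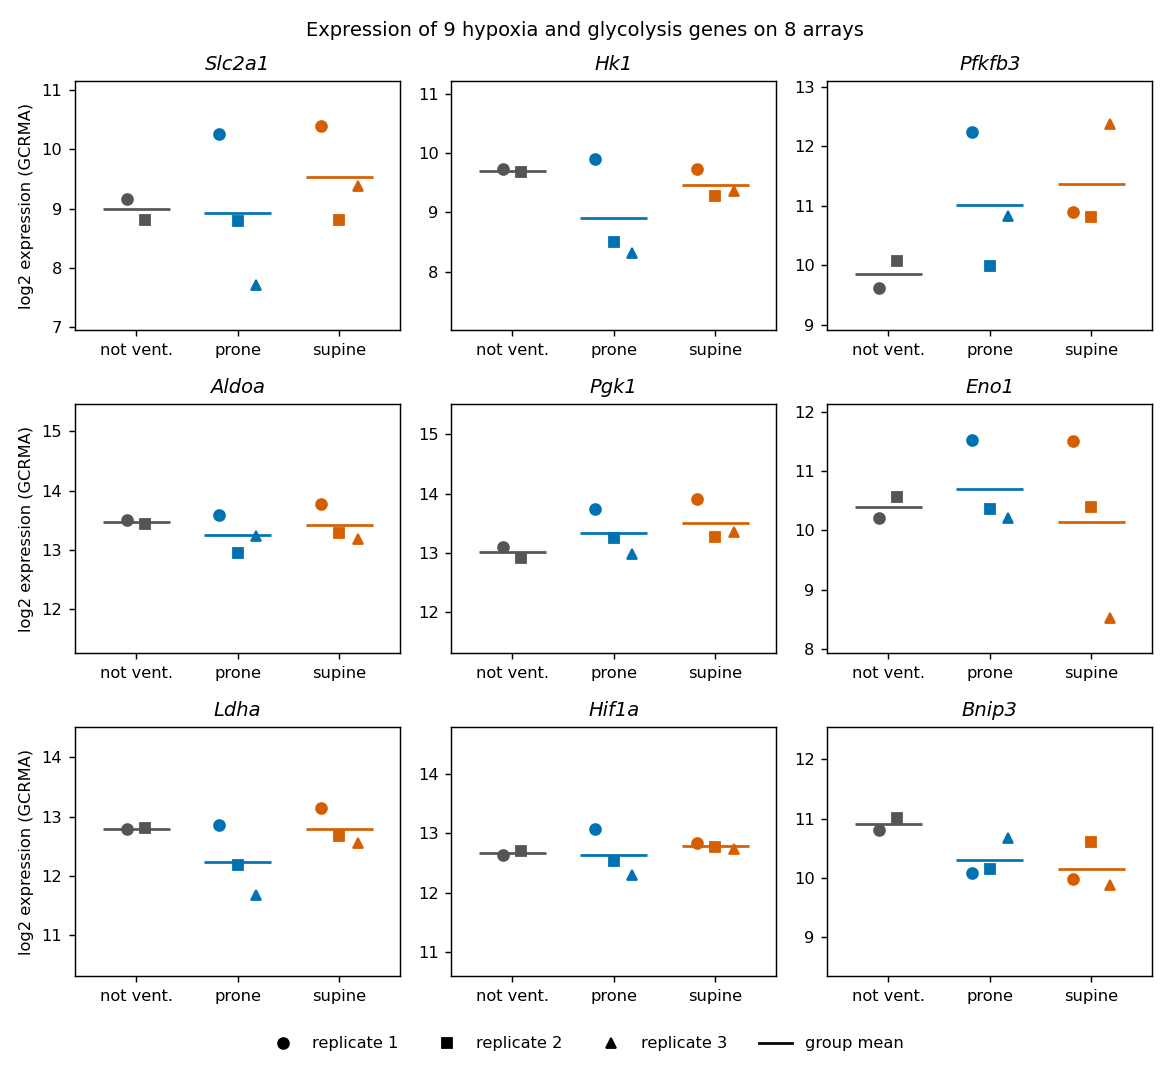
Log2 expression (vertical axis, deposited GCRMA values, with panels of equal span) of 9 genes on 8 arrays, by group; symbols give the replicate number and lines the group means. For Slc2a1 the first prone and supine arrays stand at 10.26 and 10.39 and the controls at 9.17 and 8.81, while Bnip3 is lower on all 6 ventilated arrays than on both controls.

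Slc2a1 encodes GLUT1, the transporter that carries glucose into most cells. It read 9.17 and 8.81 on the 2 control arrays, 10.26, 8.80 and 7.71 on prone replicates 1 to 3 and 10.39, 8.80 and 9.39 on supine replicates 1 to 3. Only the first array of each ventilated group was more than 1 log2 unit above the control mean of 8.99, and prone replicate 3 was the lowest of all 8, so the groups overlapped. The difference from control lungs was -0.067 ± 0.76 (log2, SE) in prone and 0.54 ± 0.76 in supine lungs (adjusted p = 0.974 and 0.74, limma). The 95% interval of the supine difference ran from -1.23 to 2.31. In the prone comparison the sign turned with centred arrays, with quantile normalization and with the replicate block (0.078, 0.0077 and 0.27), and without prone replicate 3 the difference was 0.54.

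Hk1 encodes the housekeeping hexokinase that traps glucose in the cell as glucose 6-phosphate. Its values were 9.73 and 9.68 in controls, 9.90, 8.51 and 8.32 in prone and 9.74, 9.27 and 9.36 in supine lungs. Prone replicates 2 and 3 were the lowest arrays, and prone replicate 1 was the highest. The prone difference was -0.79 ± 0.49 (95% interval -1.93 to 0.35, adjusted p = 0.443, limma), and the supine difference was -0.25 ± 0.49 (adjusted p = 0.819). Without prone replicate 1 the prone difference was -1.29, with an adjusted p of 0.0957 by limma. Over 18 alternatives the adjusted p ran from 0.0501, without both first ventilated arrays, to 0.856.

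Pfkfb3 makes fructose 2,6-bisphosphate, the strongest activator of phosphofructokinase, and is an inducible switch of glycolytic rate. It had the largest difference of the group. Controls read 9.62 and 10.07, prone lungs 12.25, 9.98 and 10.82, and supine lungs 10.90, 10.81 and 12.38. All 3 supine arrays lay above both controls, as did 2 of the 3 prone arrays, and prone replicate 2 lay between the controls. The mean was 9.84 ± 0.31 (SD, n = 2) in control, 11.02 ± 1.15 (n = 3) in prone and 11.37 ± 0.88 (n = 3) in supine lungs. This gave 1.17 ± 0.73 for prone and 1.52 ± 0.73 for supine lungs (SE), with adjusted p of 0.448 and 0.367 in limma's fit. Over all 6 ventilated lungs the difference was 1.35 ± 0.65, a 2.54-fold level with a 95% interval of -0.18 to 2.87 log2 units (adjusted p = 0.306, limma). Without prone replicate 1 the prone difference was 0.56. Supine replicate 3, the highest array, had degraded RNA, and without it the supine difference was 1.01.

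The 5 named genes whose profile over the 8 arrays was most like that of Pfkfb3 were Plec (Pearson r = 0.95), LOC100910424 (0.947), Tex2 (0.941), Ipmk (0.937) and Mars1 (0.935). Mars1 encodes the cytosolic methionyl-tRNA synthetase and Plec the cytolinker plectin. All 5 were highest on prone replicate 1 and supine replicate 3, as Pfkfb3 was. They were the highest among 10240 named genes over only 8 arrays, and this is a description.

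Aldoa is the muscle-type aldolase that splits fructose 1,6-bisphosphate. Apart from Hif1a, which is not an enzyme, it had the smallest range of the genes. Its values lay between 12.95 and 13.77 on all 8 arrays, with controls at 13.50 and 13.43. The prone difference was -0.21 ± 0.32 and the supine difference -0.05 ± 0.32 (adjusted p = 0.776 and 0.947, limma). The 95% intervals, -0.96 to 0.55 and -0.80 to 0.70, lie below 1 log2 unit in both positions.

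Pgk1 encodes phosphoglycerate kinase, which makes the first ATP of the pathway. Its brightest probe set read 13.10 and 12.92 in controls, 13.74, 13.26 and 12.99 in prone and 13.90, 13.26 and 13.36 in supine lungs. The 3 supine arrays lay above both controls, and prone replicate 3 lay between them. The difference was 0.32 ± 0.35 in prone and 0.49 ± 0.35 in supine lungs (adjusted p = 0.666 and 0.503, limma). A second probe set, whose name ends in _s_at because its probes can match more than 1 transcript, did not show it. It read 12.09 and 12.02 in controls, 12.46, 11.94 and 11.71 in prone and 12.46, 11.85 and 11.53 in supine lungs, and its differences were -0.017 ± 0.38 and -0.11 ± 0.38. The probe sets of Pgk1 thus disagreed in sign in both comparisons, and the sign of a Pgk1 difference is uncertain.

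Eno1 encodes alpha-enolase, which makes phosphoenolpyruvate. It read 10.21 and 10.56 in controls, 11.53, 10.36 and 10.20 in prone and 11.50, 10.39 and 8.53 in supine lungs. The first prone and supine arrays were the highest, almost 1 log2 unit above every other array, and supine replicate 3 was the lowest. The differences were 0.31 ± 0.83 and -0.25 ± 0.83 (adjusted p = 0.878 and 0.895, limma). On supine replicate 3 the 3′ probe set of beta-actin exceeded the 5′ one by 9.10 log2 units, against 3.16 to 4.64 on the other arrays, a sign of RNA degradation. The part of degradation in the low Eno1 value was not tested. Without that array the supine difference turned to 0.56.

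Ldha, the subunit of lactate dehydrogenase that favours lactate formation, was nearly the same on the 2 control arrays, at 12.79 and 12.80. Prone lungs read 12.87, 12.18 and 11.68 and supine lungs 13.15, 12.68 and 12.56. Each ventilated group had its first array above the controls and the others below. The prone difference was -0.56 ± 0.40 (95% interval -1.49 to 0.38, adjusted p = 0.511, limma). The supine and control means did not differ at the second decimal (12.80 ± 0.31, SD, n = 3, and 12.80 ± 0.0054, n = 2), and the 95% interval of the difference ran from -0.94 to 0.93.

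Hif1a, the oxygen-sensitive subunit, varied little. It read 12.63 and 12.71 in controls, 13.08, 12.53 and 12.31 in prone and 12.84, 12.76 and 12.74 in supine lungs. All 3 supine arrays lay above both controls, but by 0.11 ± 0.31 on average (adjusted p = 0.877, limma). The prone difference was -0.035 ± 0.31 (95% interval -0.76 to 0.69, adjusted p = 0.966), and it was 0.11 with centred arrays and 0.058 with the replicate block.

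Bnip3 encodes a mitochondrial outer membrane protein that marks mitochondria for removal and is a classical HIF-1 target. It was the 1 gene that lay lower on all 6 ventilated arrays than on both controls. Controls read 10.81 and 11.01, prone lungs 10.09, 10.16 and 10.66, and supine lungs 9.98, 10.61 and 9.88. The mean was 10.91 ± 0.14 (SD, n = 2) in control, 10.30 ± 0.31 (n = 3) in prone and 10.16 ± 0.39 (n = 3) in supine lungs. The difference was -0.60 ± 0.34 for prone, -0.75 ± 0.34 for supine and -0.68 ± 0.31 for all ventilated lungs (SE). The last is a 0.626-fold level, with a 95% interval of -1.39 to 0.04. None passed (adjusted p = 0.407, 0.349 and 0.279, limma). The sign held in all 18 alternatives for prone and for supine lungs, but most of these could not turn it. Other filters and variance models leave the difference as it is, and no left-out array can turn the sign where groups do not overlap. Only the replicate block, centred arrays and quantile normalization could have turned it.

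**Figure D2:**
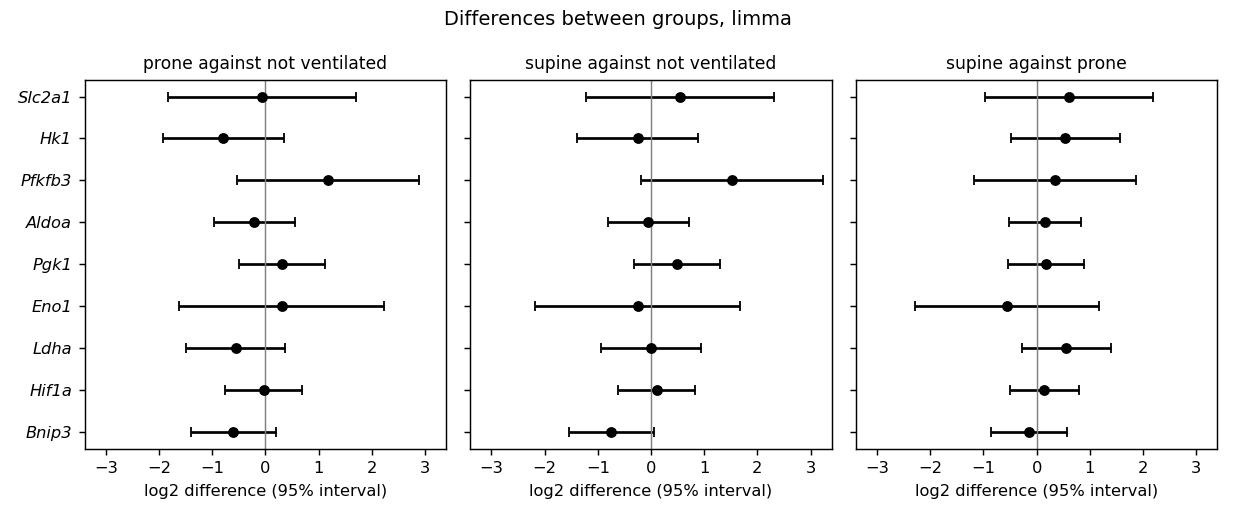
Log2 differences (horizontal axis) of 9 genes, each read by its brightest probe set, in 3 comparisons; points are limma estimates and bars 95% intervals. Every interval includes 0, and the widest belong to Eno1, Slc2a1 and Pfkfb3.

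Separation of the groups was also counted, as arrays of 1 group that all lie above or below those of the other. In prone against control lungs 1 of 10 member probe sets separated the groups, against 48.6% of all probe sets, namely Bnip3. In supine against control lungs 4 of 10 did, against 41.8%, namely Pfkfb3, Pgk1 and Hif1a higher and Bnip3 lower. In supine against prone lungs 0 of 10 did, against 5.89%. Over all ventilated lungs against controls 1 of 10 did, against 29.6%. Single arrays decided these counts. Without prone replicate 1 the prone count was 7, against 72% of all probe sets, and the supine against prone count was 5, against 29.8%. Without supine replicate 1 the supine count was 8, against 60.1%. Leaving out an array makes separation easier by construction, and the difference between the members and all probe sets was not tested.

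Body position made no difference that passed for any member. Supine against prone, the largest estimates were Slc2a1 at 0.61 ± 0.68, Ldha at 0.56 ± 0.36, Eno1 at -0.56 ± 0.74 and Hk1 at 0.54 ± 0.44 (log2, SE), with adjusted p of 0.946, 0.942, 0.951 and 0.942 (limma). The intervals were wide: for Slc2a1 from -0.98 to 2.19. For Aldoa and Hif1a they were narrower, -0.52 to 0.83 and -0.50 to 0.79. Without prone replicate 3 the Slc2a1 difference was -0.0015.

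What the genes had in common was a pair of arrays. For 7 of the 9 genes (Slc2a1, Hk1, Aldoa, Pgk1, Eno1, Ldha and Hif1a) the 2 highest of the 8 arrays were prone replicate 1 and supine replicate 1. This held for 17.9% of all 10240 named genes tested. For Hk1 the margin was very small, with supine replicate 1 at 9.736 and control replicate 1 at 9.730. The pattern was noticed in these data and is a description of 8 arrays. The median of the 9 genes, taken per array against the control mean, was 0.41 on prone replicate 1 and 0.35 on supine replicate 1, and -0.19, -0.24, -0.12 and -0.24 on the other ventilated arrays. Over all named genes the same medians were -0.04 and 0.05 on the first arrays and lay between -0.19 and -0.05 on the others. Pfkfb3 was highest on supine replicate 3 and prone replicate 1, and Bnip3 was highest on the controls.

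**Figure D3:**
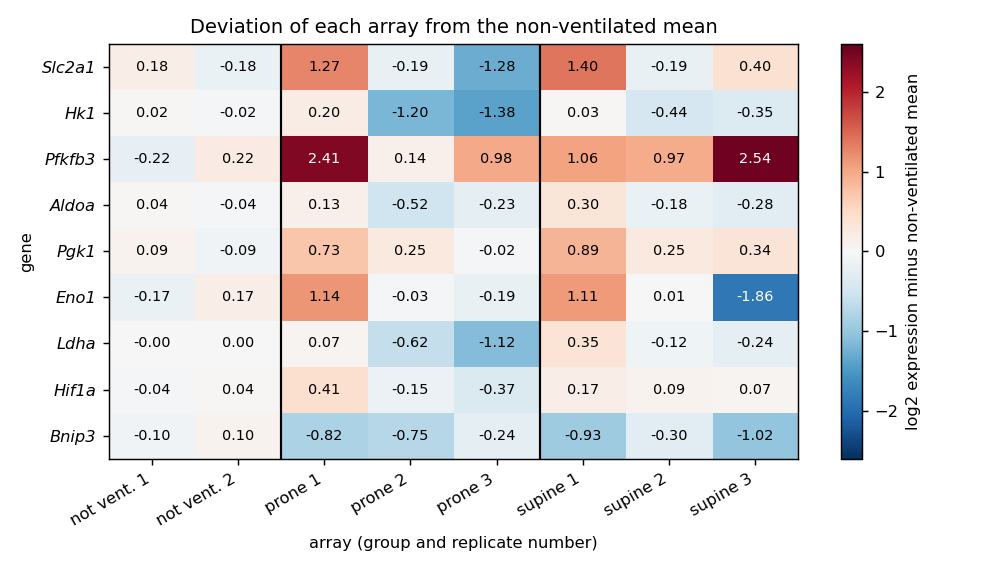
Deviation of each array (columns) from the mean of the 2 non-ventilated arrays, in log2 units, for each gene (rows); red is higher and blue lower. The columns of prone 1 and supine 1 are above 0 for every gene but Bnip3, and the cell of Eno1 on supine 3 is the lowest for that gene.

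Without those 2 arrays the median difference of the 9 genes was -0.37 in prone against control lungs and -0.32 over all ventilated lungs, and 0 members passed in any comparison. Ldha and Hk1 followed each other most closely over the 8 arrays (Pearson r = 0.935, Spearman rho = 0.929), then Slc2a1 and Hif1a (0.879 and 0.81) and Pgk1 and Slc2a1 (0.878 and 0.738). Pgk1 and Bnip3 ran in opposite directions (-0.791 and -0.881). These are 4 of 36 pairs, and they share the arrays and their normalization. Each gene was read by its brightest probe set. The second Pgk1 probe set, whose differences from control lungs had the other sign, was not correlated with Bnip3 or Slc2a1.

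Markers of neutrophils were high on the same arrays. Of 8 listed markers 7 were measured, and their summed level (log2 of the summed linear signal) was 13.23 to 13.51 on control arrays, 14.91 to 16.71 on prone and 14.85 to 16.56 on supine arrays. The highest values were 16.71 on prone replicate 1 and 16.56 on supine replicate 1, and the other ventilated arrays were at 15.46 or below. The sum is set mostly by the brightest markers, S100a8 and S100a9. Mmp8 went otherwise, at 6.59 on supine replicate 1 and 6.90 on supine replicate 2. Each other marker was highest on prone replicate 1 and supine replicate 1. In control lungs Cxcr2 was the lowest, at 2.32 and 2.23. Mmp8 and Mmp9 also lay under log2 5 on both control arrays, and the other markers lay above it. Without detection calls, values this low cannot show whether Cxcr2, Mmp8 and Mmp9 were present in control lungs. The part of neutrophils in the values of the glycolysis genes was not tested. Lung epithelium was plainly present on every array, with the surfactant gene Sftpc between 15.02 and 15.51. The type 1 cell marker Ager read 14.54 and 14.44 in controls and 13.29 to 14.07 on ventilated arrays. Of 5 type 1 markers, 4 lay lower on every ventilated array than on both controls and 1, Pdpn, lay higher. Over all probe sets 29.6% separated these groups. The median difference of the type 1 markers was -0.73, and 0 passed limma's adjusted threshold. The part of these cells in the values of the genes was not tested.

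Transcripts of other tissues varied too. The summed level of 4 of 6 listed cardiac markers was 11.09 on prone replicate 2 and 9.95 on supine replicate 3, against 5.40 to 7.14 elsewhere. Of 5 listed skeletal muscle markers 3 were measured, and their sum was 3.96 to 4.66 on controls and 6.94 to 8.54 on ventilated arrays, highest on prone replicate 1 and lowest of these on supine replicate 1. Hepatocyte markers (3 of 3) stood at 12.68 on supine replicate 3 and at 8.45 on prone replicate 2, against 3.67 to 5.91 elsewhere. Muscle and liver are rich in glycolytic enzymes, and their part in the values of these genes was not tested.

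The rest of the pathway was examined from 3 further lists. Of 26 other glycolysis genes 18 were tested, and 0 passed in any comparison with limma's adjusted p. Over all ventilated lungs 8 were higher and 10 lower, with a median of -0.14, beside -0.12 over all named genes, and 1 had an unadjusted p under 0.05, against 19.2% of all probe sets. Their median against the control mean was -0.064 on prone replicate 1, where the 9 genes stood at 0.41, and 0.37 on supine replicate 1. The largest difference was Slc2a3, the high-affinity glucose transporter GLUT3 of neurons and leukocytes, at 1.82 ± 0.87 (adjusted p = 0.302, limma). It read 6.25 and 5.58 in controls, 9.40, 7.14 and 6.03 in prone and 9.06, 7.15 and 7.66 in supine lungs, again highest on the first array of each ventilated group. Aldoc, the brain-type aldolase, and Pfkm, the muscle-type phosphofructokinase, stood at -1.63 ± 1.12 and -1.62 ± 0.89. Aldoc was lowest on the first prone and supine arrays, at 3.00 and 3.30. Pfkm was at 4.38 and 4.78 there and at 4.69 on supine replicate 3, and at 6.66 or above on the others.

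Regulators of HIF gave 0 calls among 6 tested of 10 listed, and 0 had an unadjusted p under 0.05, against the same 19.2%. The median over ventilated lungs was -0.31, with 2 higher and 4 lower. Arnt2, a dimer partner of HIF-alpha subunits, stood at -1.36 ± 0.92, Cited2, which competes with HIF-1alpha for its coactivator, at -0.88 ± 0.44, and Egln1, the main prolyl hydroxylase that marks HIF-alpha for degradation, at -0.54 ± 0.37 (adjusted p = 0.446, 0.322 and 0.45, limma). Cited2 was below both controls on all 6 ventilated arrays, the only 1 of the 6 genes to separate, where 29.6% of all probe sets did.

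Among hypoxia targets outside glycolysis the collagen-modifying enzymes stood highest. Of 17 listed genes 14 were tested, 0 passed, and 5 had an unadjusted p under 0.05, against 19.2% of all probe sets. The list was evenly split, with 7 higher and 7 lower over all ventilated lungs and a median of 0.0032. Of the 14 genes, 2 lay higher and 2 lower on every ventilated array than on both controls, where 29.6% of all probe sets separated. P4ha1, the catalytic subunit of collagen prolyl 4-hydroxylase, read 10.83 and 11.29 in controls, 12.92, 13.78 and 14.08 in prone and 11.36, 12.31 and 13.74 in supine lungs. Every ventilated array lay above both controls, and the first arrays were the lowest of their groups, unlike the glycolysis genes. Its difference was 1.97 ± 0.61 (adjusted p = 0.164, limma). Plod2, a collagen lysyl hydroxylase, was at 1.67 ± 0.35 (adjusted p = 0.101), also higher on all 6 ventilated arrays. P4ha2 was at 1.16 ± 0.47 (adjusted p = 0.244).

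Bnip3l, the close relative of Bnip3, and Vegfa, the endothelial growth factor, were picked out after their values were seen. Bnip3l read 13.21 and 13.26 in controls and 12.18 to 12.70 on the 6 ventilated arrays, a difference of -0.85 ± 0.27 (adjusted p = 0.169, limma). Vegfa read 12.47 and 12.16 in controls and 11.15 to 11.86 on ventilated arrays, a difference of -0.82 ± 0.30 (adjusted p = 0.207). Like Bnip3, both lay lower on every ventilated array than on both controls, and neither passed. Over all probe sets 29.6% separated these groups.

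**Figure D4:**
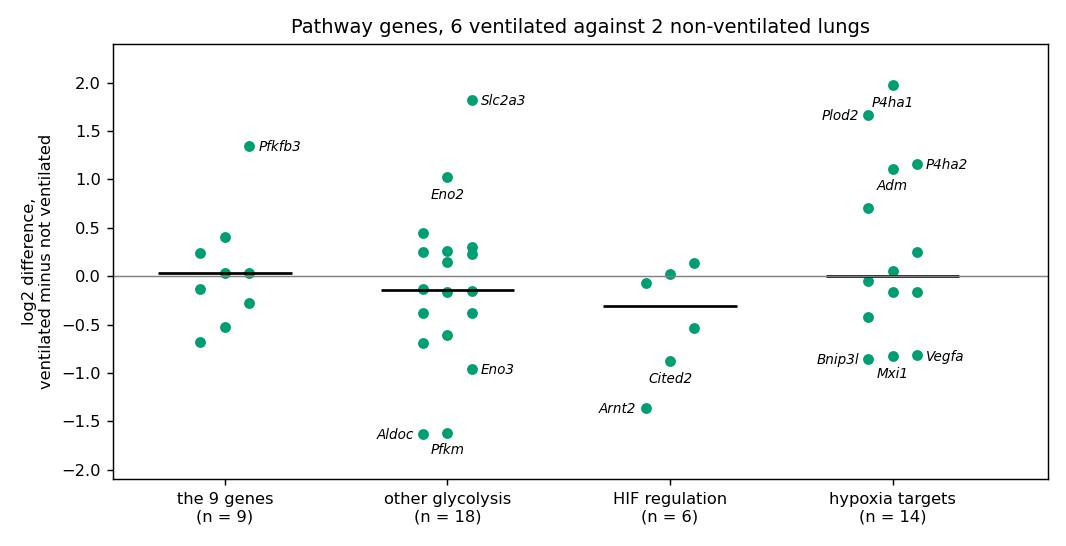
Log2 differences between 6 ventilated and 2 non-ventilated lungs (vertical axis) for the 9 genes and 3 lists of other pathway genes; each point is a gene, lines are medians, and genes beyond 0.8 are named. Points lie on both sides of 0 in every list, with P4ha1, Slc2a3 and Plod2 at the top.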

How the data were processed

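Lung RNA (300 ng a sample) was labelled with biotin and hybridised to 1-colour Affymetrix rat arrays. The values the authors deposited are log2 expression, between 1.01 and 15.72. Per the submitters' processing notes GCRMA and Partek 6.5 were used. GCRMA corrects background, equalises the distributions of the arrays and summarises probes, so a change shared by most genes is removed. Filters and detection calls were not given in the sources used here.

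Gene symbols came from the platform annotation, and the probe set with the highest mean stood for a gene. The 28 control probe sets were set aside. A probe set was tested if 2 or more arrays reached log2 5, which left 16896. limma 3.58.1 in R 4.3.3 (lmFit, eBayes) fitted 1 mean per group to all 8 arrays, two-sided, with Benjamini-Hochberg adjustment in each comparison and a threshold of 0.05. It was tested on simulated data with independent errors and added differences larger than any of the members here. That test does not show how often differences of the size seen here would pass. Errors after ± are standard errors unless SD is stated. P-values set a difference against the spread between these samples, estimated over all groups together.

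With group means removed, same-numbered arrays of different groups correlated positively (7 pairs, r from 0.109 to 0.721). The value of 0.721 was for prone and supine replicate 1. Some pairs with different numbers also did, with prone replicate 3 and supine replicate 2 at 0.404. The 2 controls then mirror each other, so the pairs are not independent. The main fit ignored the numbers, and they served as a block in an alternative fit only. That block rests on the data, as the labels name no shared day or batch. The members and lists were chosen with earlier results of these data known. Named list genes were up to 3 per list with the largest ventilated difference, and the 5 genes most like the leading member. Alternatives were other filters, scalings, variance models and left-out arrays, the replicate block, and the mean of a gene's probe sets.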

Additional observations from a re-analysis of the deposited data

How the results depend on the processing

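No member passed in any comparison under any alternative run, so 36 gene differences kept their side of the threshold, and 16 of them changed sign under at least 1 alternative. With the replicate block, Slc2a1 and Hif1a stood at 0.27 and 0.058 in prone lungs and Eno1, Ldha and Aldoa at 0.28, 0.20 and 0.012 in supine lungs, all against controls. With centred arrays Slc2a1 and Hif1a were at 0.078 and 0.11 in prone and Ldha and Aldoa at 0.072 and 0.024 in supine lungs. With quantile normalization Slc2a1 was at 0.0077 in prone and Ldha and Aldoa at 0.097 and 0.089 in supine lungs. Without both first ventilated arrays Eno1 was at -0.11 in prone lungs, Eno1, Slc2a1 and Hif1a were at -0.52, -0.32 and -0.088 over all ventilated lungs, and the medians of the 9 genes were -0.37 and -0.32. The median of the 9 genes also turned with the replicate block (0.058 in prone and 0.20 in supine lungs), with centred arrays (0.078 and 0.072) and, in supine lungs, with quantile normalization (0.097).

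Leaving out 1 array at a time gave, in prone against control lungs, -0.74 to 0.54 for Slc2a1, -0.26 to 0.13 for Hif1a, -0.11 to 0.56 for Eno1 and -0.37 to 0.13 for the median. In supine against control lungs it gave -0.93 to 0.56 for Eno1, -0.18 to 0.12 for Ldha, -0.23 to 0.063 for Aldoa and -0.18 to 0.13 for the median. In supine against prone lungs it gave -1.23 to 0.25 for Eno1, -0.17 to 0.96 for Pfkfb3, -0.0015 to 1.28 for Slc2a1, -0.022 to 0.36 for Hif1a, -0.37 to 0.032 for Bnip3, -0.022 to 0.38 for Pgk1 and -0.020 to 0.32 for Aldoa. Over all ventilated lungs it gave -0.31 to 0.43 for Eno1, -0.074 to 0.12 for Hif1a, -0.10 to 0.54 for Slc2a1 and -0.22 to 0.12 for the median. Where 1 control array remained, it was assumed to vary like the other groups.

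Over all probe sets the counts that passed (9, 9 and 24 for prone, supine and all ventilated against control lungs, 0 for supine against prone) were unstable. They were 35, 18 and 118 without a filter, 0, 0 and 5 at log2 7, 0, 0 and 0 with the replicate block, 0, 0 and 11 with an intensity trend and 728, 0 and 413 without both first ventilated arrays. In fits to only the groups compared they were 119 for prone and 0 for supine lungs. Without 1 array they ranged from 0 to 115, 0 to 153 and 0 to 381, and from 0 to 3 for supine against prone. The cause was not tested.

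Counts of member probe sets whose groups do not overlap, and of genes highest on the first arrays, were examined under alternatives chosen after seeing the data. Without 1 array the former were 1 to 7 of 10 for prone (48.6% to 72% of all probe sets), 4 to 8 for supine (41.8% to 62.1%), 0 to 5 for supine against prone (5.89% to 29.8%) and 1 to 2 for all ventilated lungs (31.2% to 39.3%). Without both first arrays they were 7, 8, 5 and 5 (72%, 60.1%, 37.8% and 45.2% of all), since fewer arrays separate more easily. With centred arrays they were 2 for prone and 2 for all ventilated lungs (48.3% and 29.1%). The 7 genes highest on the first arrays (17.9% of all named genes) became 6 with quantile normalization (17.5%) and 8 without supine replicate 3 (24.8%). The control group has 2 arrays, and without detection calls the lowest values have no known distance from background.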
